A study of Mus musculus with 6 samples.

Results

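Genes of fatty acid activation, oxidation and synthesis were compared between astrocytes, the glial cells that surround and nourish neurons, of the mouse cerebellum and neocortex. The set held 38 genes, chosen for their known function and found by the gene symbol of each probe set, of 18193 genes named on the array. The set and the further lists below were chosen with earlier results of these data known. Their shares beside those of all genes are thus descriptive only. A total of 37 of the 38 genes had at least 1 probe set, 75 in all, and Acsl1 was not analysed here. Of the 37, 34 were bright enough to test, and Acacb, Ehhadh and Elovl2 were not. RNA came from 3 samples labelled neocortical and 3 labelled cerebellar astrocytes, each on 1 single-colour oligonucleotide array. Strain ICR is given for the neocortical samples and no strain for the cerebellar ones, so strain and region cannot be told apart if the strains differed. Age, culture and treatment are not stated in the sources used. Nor do they say whether the 3 samples of a region are different animals or cultures, so each p-value reflects only sample-to-sample spread, which may be technical.

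A fatty acid enters metabolism when an acyl-CoA synthetase joins it to coenzyme A. The activated chain can be carried into mitochondria by the carnitine shuttle and shortened by repeated rounds of beta-oxidation, or it can be lengthened by elongases and given double bonds by desaturases. New chains are built in the cytosol from acetyl-CoA by acetyl-CoA carboxylase and fatty acid synthase. In the brain, astrocytes are the cells best known for oxidising fatty acids, for producing ketone bodies and for making long polyunsaturated fatty acids from the essential fatty acids of the diet.

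Signal is quantile-normalized intensity in arbitrary units, comparable between arrays for 1 gene but not between genes. Each gene stands by its brightest probe set. Differences are given on the log2 scale as cerebellar minus neocortical with the standard error (SE), and a gene passed at a limma p-value below 0.05 after Benjamini-Hochberg adjustment over all 27022 probe sets tested. The 24 bacterial control probe sets, which gauge the dim range, read up to 269.2 in the values as deposited. Their 95th percentile was 116.2, so the upper end of that range rests on few readings. The Gapdh control probe sets, which report RNA integrity, had a 3′/5′ ratio from 0.913 to 1.07 on cerebellar and from 0.865 to 0.883 on neocortical arrays, without overlap. The same ratio for actin ran from 1.42 to 1.62 and from 1.35 to 1.44, with overlap. The summed signal of 12 astrocyte markers, among them Gfap, Slc1a3, Aqp4 and Aldh1l1, ran from 210852 to 287397 on cerebellar and from 309994 to 354566 on neocortical arrays. Of these markers 4 were lower in cerebellar samples (Fabp7, Aldoc, Slc1a3 and Glul), 1 was higher (Aqp4) and 7 did not pass. Fabp7 is counted again below among the genes of fatty acid uptake and binding. With the replicate number as a block, Gfap (adjusted p = 0.00406) and Slc1a2 (0.0406) were also lower, as was the neuronal Map2 (0.0167), and the fibroblast markers Col1a1 (0.00597) and Foxc1 (0.03) and the mural Des (0.0246) were higher. Of 11 measured oligodendrocyte lineage markers 2 were lower, Olig2 with a log2 difference of -2.58 and Olig1 with -1.74, 1 was higher (Mbp), and Mog was under the floor on every array; the summed signal ran from 54304 to 84570 on cerebellar and from 75019 to 87148 on neocortical arrays. The summed signal of the 8 choroid plexus and ependymal markers ran from 8448 to 14967 and from 16694 to 19621, and that of the 12 endothelial and mural markers from 82386 to 103781 and from 115125 to 126873, in both cases without overlap. Among the former Otx2 (-3.60) and Folr1 (-2.07) were lower and 4 did not pass, with Foxj1 and Ccdc153 overlapping. Otx2, with a cerebellar mean of 150.5 in the dim range, was kept for testing through its neocortical arrays. Among the latter Kdr (-1.56) and Acta2 (-0.38) were lower and 3 did not pass. Acta2 made up most of that sum, and the other 11 markers overlapped, at 1687 to 2855 and 2326 to 3088. Pecam1 and Tie1, which define endothelium, were under the floor on every array. Summed signals overlapped between regions for 12 fibroblast markers (Fn1 and Twist1 higher, Ogn lower; 120273 to 303830 on cerebellar and 112918 to 174866.5 on neocortical arrays) and for 12 neuronal markers (Syt1 lower, 7 with means in the dim range; 15832 to 24914 and 21788 to 24098). They also overlapped for 12 microglial markers (7989.8 to 44304.5 and 13848 to 38011) and 7 proliferation markers (63444 to 70168 and 63916 to 71045), in which limma called 0 genes (0 and 1 at an unadjusted p below 0.05). The 6 measured adipocyte markers all had means in the dim range. The part of these differences in the results below was not tested. In RNA from many cells, fewer cells of a type and less RNA per cell cannot be told apart.

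Among the 34 tested genes, 8 had lower signal in the cerebellar samples, 26 did not pass and 0 were higher by limma. The 8 were the synthetases Acsl6 and Acsbg1, the desaturases Fads2 and Fads1, the elongase Elovl6, the carnitine transferase Cpt1a and the oxidation enzymes Hadh and Acadl. Their folds ran from 1.28 for Acadl to 3.76 for Acsl6. The 8 are 23.5% of the genes tested, where 7.36% of all 12616 genes tested were lower and 5.3% were higher. At an unadjusted limma p below 0.05, 14 were lower and 3 higher, against 15.3% and 12.6% of all genes. The groups did not overlap for 13 genes lower and 3 genes higher in cerebellar samples, where 18.3% and 16% of all genes did so.

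Of the 34 differences 25 were below 0 and 9 above. The median log2 difference of the 34 genes was -0.19, against -0.01 for all genes. Relative to the neocortical mean, the median over the 34 genes was -0.24, -0.12 and -0.21 on cerebellar arrays 1 to 3. Scaling by the array median moved the median of all genes to -0.14 and that of the 34 genes to -0.38, with 10 genes lower. Under that scaling 66.2% of all genes had a difference below 0, against 51.8% in the main fit. Over all probe sets, lower calls rose from 1545 to 2105 and higher calls fell from 1319 to 819. Without any 1 array, 5 to 8 of the 34 were lower. It was 5 without cerebellar replicate 2 or 3 or without any 1 neocortical replicate, and Acsl6, Acsbg1, Fads1, Fads2 and Hadh passed in all 6 of these fits. Lower calls over all probe sets fell too, to 1542, 1438 and 1121 without cerebellar replicate 1, 2 and 3. With the replicate number as a block, 8 were lower, with Scd1 in place of Cpt1a, where 8.6% of all genes were lower. The lipid droplet gene Plin2 was then the 1 higher gene, where 6.04% of all genes were higher.

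**Figure D1:**
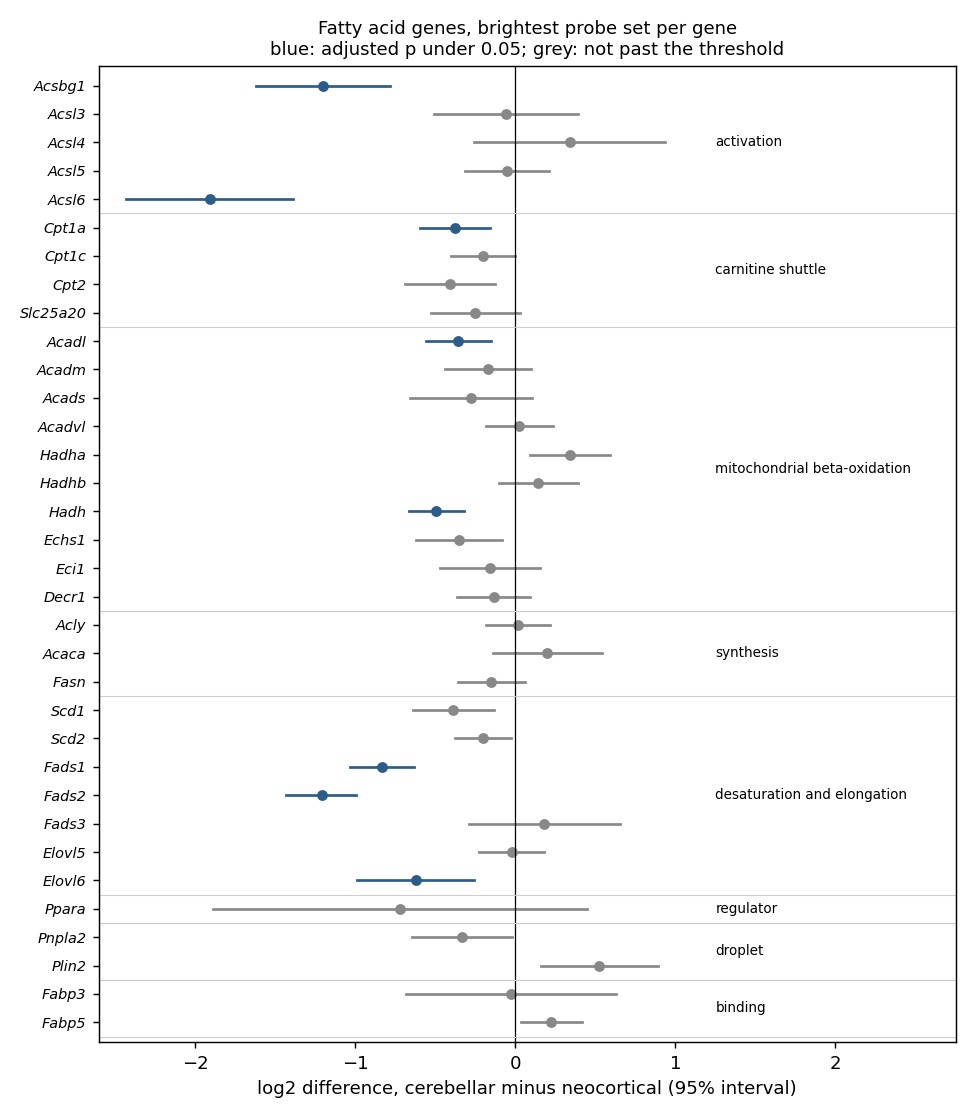
Log2 difference in signal, cerebellar minus neocortical, of the 34 tested genes grouped by role, with points for the limma estimate and lines for its 95% interval. The 8 genes past the threshold are in blue, all to the left of 0, with Acsl6 at -1.91 and Fads2 at -1.21.

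**Figure D2:**
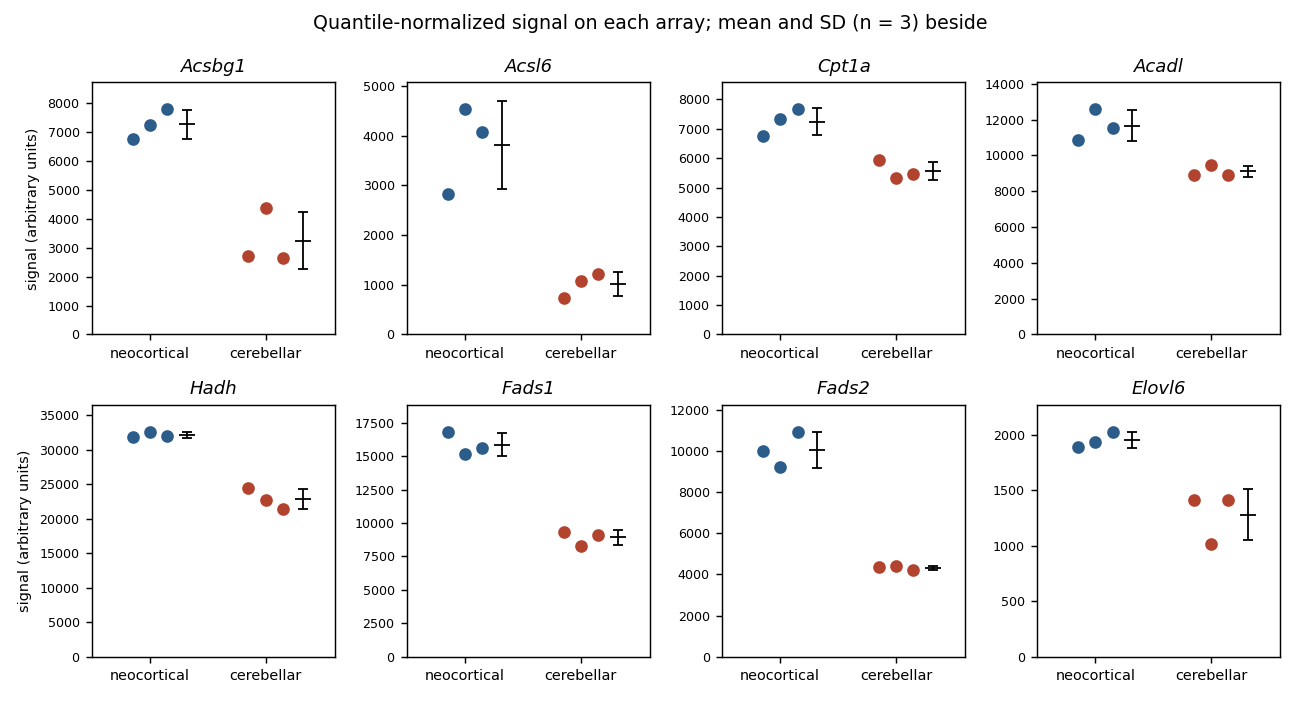
Quantile-normalized signal in arbitrary units of the 8 genes that were lower in cerebellar astrocytes, with 1 point per array and the mean with SD (n = 3) beside each group; axes start at 0. In every panel each cerebellar array (red) lies below each neocortical array (blue).

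Of the acyl-CoA synthetases, Acsl6 and Acsbg1 were lower in cerebellar astrocytes while Acsl3, Acsl4 and Acsl5 did not pass. Acsl6, a long-chain synthetase best known for its preference for polyunsaturated chains, read 738, 1082 and 1222 on cerebellar arrays 1 to 3 and 2824, 4529 and 4073 on neocortical arrays 1 to 3. The lowest neocortical array stood well above the highest cerebellar one. The log2 difference was -1.91 ± 0.23 (SE), a 3.76-fold lower signal (adjusted p = 0.00139). Its dimmer probe set gave a 2.0-fold lower signal (adjusted p = 0.03).

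Acsbg1, the bubblegum family synthetase, is known for its high level in astrocytes. It read 2708, 4366 and 2654 on cerebellar and 6745, 7241 and 7777 on neocortical arrays. The groups were well apart, with cerebellar replicate 2 above the other two cerebellar arrays. The log2 difference was -1.20 ± 0.19 (SE), or 2.3-fold (adjusted p = 0.00456), and it was -1.43 without cerebellar replicate 2. Of the genes that did not pass, the brightest was Acsl3, a synthetase of the endoplasmic reticulum and lipid droplets. It read 2845, 3848 and 3428 on cerebellar and 2767, 4703 and 3253 on neocortical arrays, which overlapped. Its probe sets ranged from -0.06 to -0.62, none past the threshold. Acsl4, which prefers arachidonic acid, had a difference of 0.34 ± 0.26, with cerebellar replicate 1 at 1738 above the other 5 arrays, and its 3 probe sets ran from 0.34 to 0.74. Acsl5, found on mitochondria and the endoplasmic reticulum, had -0.05 ± 0.12, with a 95% interval from -0.32 to 0.21.

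The regional difference of Acsl6 lay 1.86 log2 units below that of Acsl5, and that of Acsbg1 lay 1.15 below that of Acsl5. In both pairs the within-array log2 ratios of the groups did not overlap, giving a two-sided exact permutation p of 0.1, below which a design of 3 against 3 cannot go. A total of 6 such pairs of genes were compared, all chosen after their values were seen, and each had the same p, which Benjamini-Hochberg adjustment leaves at 0.1.

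Among the 7 tested desaturase and elongase genes of the set, Fads2 and Fads1 had the largest differences. Their enzymes insert the double bonds that turn the essential fatty acids into long polyunsaturated ones. The 3 desaturase genes lie next to each other on mouse chromosome 19 in the order Fads3, Fads2, Fads1, with no other protein-coding gene between them in RefSeq (GRCm38.p6). The promoter windows of Fads2, which was lower, and of its neighbour Fads3, which did not pass, are shown together with that of Acsbg1. The sequence at their starts can thus be compared. Fads1, which was also lower, had no window. Each window runs from 250 bases before to 50 after the annotated start, 5′ to 3′ on the gene's strand, from RefSeq GRCm38.p6. Capitals mark CCAAT boxes, E-boxes (CACGTG) and Sp1 GC boxes (GGGCGG) on either strand.
Fads2 chr19:10101454-10101753, minus strand: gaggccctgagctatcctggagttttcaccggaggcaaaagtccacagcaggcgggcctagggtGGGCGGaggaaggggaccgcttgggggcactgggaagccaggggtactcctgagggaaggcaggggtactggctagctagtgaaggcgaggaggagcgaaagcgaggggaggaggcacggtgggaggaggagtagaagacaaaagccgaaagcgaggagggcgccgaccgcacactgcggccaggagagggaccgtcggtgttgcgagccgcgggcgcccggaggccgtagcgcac
Fads3 chr19:10041298-10041597, plus strand: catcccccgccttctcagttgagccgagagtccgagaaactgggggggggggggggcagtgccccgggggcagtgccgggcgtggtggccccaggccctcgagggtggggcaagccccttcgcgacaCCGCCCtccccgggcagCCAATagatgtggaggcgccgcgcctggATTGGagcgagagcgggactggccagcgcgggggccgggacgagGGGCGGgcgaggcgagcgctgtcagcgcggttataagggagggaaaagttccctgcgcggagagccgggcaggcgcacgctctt
Acsbg1 chr9:54661836-54662135, minus strand: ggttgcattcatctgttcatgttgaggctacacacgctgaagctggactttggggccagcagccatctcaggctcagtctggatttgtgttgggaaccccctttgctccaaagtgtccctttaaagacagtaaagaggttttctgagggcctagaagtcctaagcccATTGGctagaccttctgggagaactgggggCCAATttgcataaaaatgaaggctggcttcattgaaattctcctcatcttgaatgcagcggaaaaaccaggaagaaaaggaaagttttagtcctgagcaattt

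The Fads2 window held 1 GC box and no CCAAT box, and the Fads3 window held 2 of each. The Acsbg1 window held 2 CCAAT boxes and no GC box, and its GC content was 47% against 67% and 73% for Fads2 and Fads3. None of the 3 held an E-box. Windows were found for 33 of the 38 genes, 37 windows in all, and for none of Fads1, Scd1, Scd2, Decr1 and Fabp5. GC boxes were in 25 of the 37 (67.6%) and in 35.7% of all 32851 windows, and CCAAT boxes in 16 (43.2%) and in 37.4%. The sterol response element TCACNCCAC, of which TCACCCCAC is the strict form, was in 2 of the 37 (5.41%) and in 1.24% of all windows. The 2 were those of Acsl1, which was not analysed, and Ehhadh, which was too dim to test. A pair of AGGTCA half-sites 1 base apart, the direct repeat that PPAR receptors bind, was in none of the 37 and in 0.0396% of all windows. E-boxes were in 2 of the 37, Elovl5 and Plin2, and in 7.15% of all windows.

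Fads2, the desaturase that takes the first step on linoleic and alpha-linolenic acid, read 4373, 4391 and 4206 on cerebellar and 9986, 9206 and 10924 on neocortical arrays. The cerebellar arrays lay within a narrow band, at less than any neocortical array. The log2 difference was -1.21 ± 0.10 (SE), or 2.32-fold (adjusted p = 0.000191). Its 3 probe sets all passed, at -1.21, -1.45 and -1.18. Fads1, which acts after a round of elongation to form arachidonic and eicosapentaenoic acid, read 9329, 8301 and 9127 on cerebellar and 16819.5, 15155 and 15573.5 on neocortical arrays. Here too the groups were far apart relative to their spread, with a log2 difference of -0.83 ± 0.09 (adjusted p = 0.000743), or 1.78-fold. A much dimmer Fads1 probe set gave -0.06 ± 0.22 and did not pass, and the mean of both probe sets gave -0.45 (adjusted p = 0.0504).

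Fads3, a related desaturase of sphingoid bases, read 4742, 2723 and 3276 on cerebellar and 3266, 2538 and 3493 on neocortical arrays, with overlap. Its difference was 0.18 ± 0.21 with a 95% interval from -0.29 to 0.65, and none of its 3 probe sets passed. The regional difference of Fads2 lay 1.39 log2 units below that of Fads3, and the Fads1 difference lay 1.01 below that of Fads3. The exact permutation p was 0.1 for each pair (two-sided), with no overlap of the within-array ratios. Elovl5, the elongase that works between the steps of Fads2 and Fads1, read 20113, 23549.5 and 23748 on cerebellar and 21775, 22993 and 23587 on neocortical arrays. Its difference was -0.02 ± 0.09, with an interval from -0.22 to 0.18. The Fads2 difference lay 1.19 log2 units below that of Elovl5 (exact permutation p = 0.1). These pairs too were chosen after their values were seen, and their p is the lowest that the design allows. Elovl2, the elongase of the longest polyunsaturated chains, was not tested, with signals of 82.3 to 256.6 on the 6 arrays, inside the dim range.

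Elovl6, the elongase of palmitate, read 1416, 1019 and 1409 on cerebellar and 1888, 1937 and 2027 on neocortical arrays, without overlap. The difference was -0.62 ± 0.16 (1.54-fold, adjusted p = 0.0417). Its other two probe sets had differences of -0.56 and -0.28 and did not pass. The call for Elovl6 held without cerebellar replicate 1 (adjusted p = 0.0381) and was lost without each of the other 5 arrays (0.0515 to 0.142), and with the values as deposited. Scd1, the stearoyl-CoA desaturase that makes oleate, read 9365, 8283 and 8757 on cerebellar and 10599.8, 10717 and 13351 on neocortical arrays. Those groups did not overlap, and the difference of -0.39 ± 0.11 missed the threshold (adjusted p = 0.0593) but passed with the replicate block (0.0491), with values as deposited and after scaling by the median. Scd2, the main stearoyl-CoA desaturase of brain, read 72872, 83727 and 81529 on cerebellar and 90464, 96582 and 86958 on neocortical arrays. It also did not overlap, with a difference of -0.20 ± 0.08 that did not pass (adjusted p = 0.133).

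**Figure D3:**
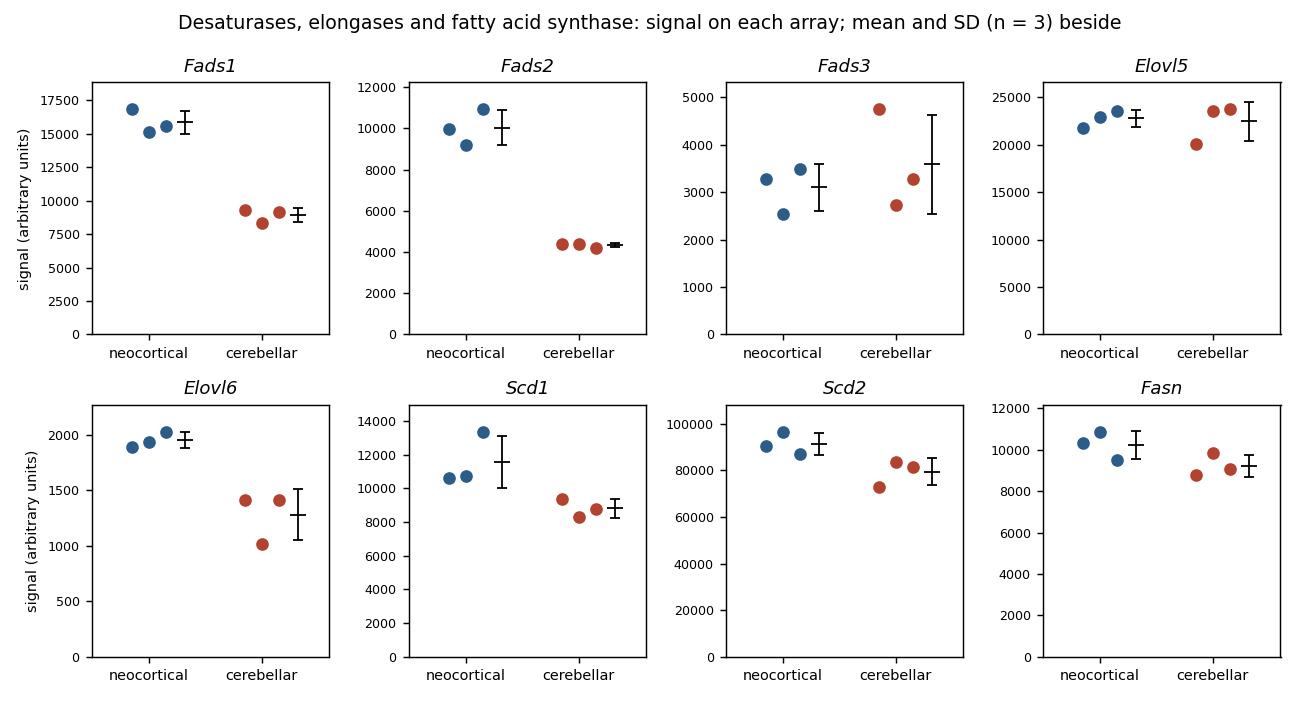
Quantile-normalized signal in arbitrary units of desaturases, elongases and fatty acid synthase, with 1 point per array, the mean and SD (n = 3) beside each group, and axes from 0. Cerebellar arrays (red) lie far below neocortical arrays (blue) for Fads1 and Fads2, while both groups overlap for Fads3, Elovl5 and Fasn.

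None of the genes that build new chains from acetyl-CoA passed, of 3 tested (0 also at an unadjusted limma p below 0.05). Fasn, the fatty acid synthase, read 8789, 9827 and 9052 on cerebellar and 10318, 10867 and 9523 on neocortical arrays, with overlap, and had a difference of -0.15 ± 0.09 (95% interval from -0.36 to 0.06). Acly, the citrate lyase that supplies cytosolic acetyl-CoA, had a difference of 0.02 ± 0.09 (-0.18 to 0.21). Acaca, the cytosolic acetyl-CoA carboxylase, had 0.20 ± 0.15 (-0.14 to 0.54). Acacb, the mitochondrial carboxylase whose product malonyl-CoA restrains Cpt1, was too dim to test on both of its probe sets, the brighter of which read from 11.02 to 203.0.

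The 4 carnitine shuttle genes all had differences below 0, and Cpt1a was the one that passed. Cpt1a, the liver-type transferase that controls entry of long chains into mitochondria, read 5929.8, 5339.6 and 5458 on cerebellar and 6757, 7328 and 7664 on neocortical arrays, without overlap. The difference was -0.38 ± 0.10 (1.3-fold, adjusted p = 0.0392). A second probe set gave -1.03 (adjusted p = 0.00737) and the remaining one, with overlap, did not pass. Both are of a class (_x_at) whose probes may also bind other transcripts. The call on the brightest probe set was lost with the replicate block (adjusted p = 0.0525) and without any 1 array other than cerebellar replicate 1 (0.0815 to 0.153). Cpt2, the inner-membrane transferase, did not overlap either, at 2208 to 2758 on cerebellar and 3031 to 3389.7 on neocortical arrays, with a difference of -0.40 ± 0.12 (adjusted p = 0.0726, and 0.0467 without cerebellar replicate 1). Cpt1c, a brain form of the transferase that lies in the endoplasmic reticulum and has little transferase activity, was the brightest shuttle gene that did not pass. It read 8015, 8943 and 8174 on cerebellar and 9754, 9958 and 9204 on neocortical arrays, without overlap, and had a difference of -0.20 ± 0.09. The carrier Slc25a20, which exchanges acylcarnitine for carnitine, had -0.25 ± 0.12 with overlap.

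Of the 10 genes of mitochondrial beta-oxidation, Hadh and Acadl were lower in cerebellar astrocytes and the other 8 did not pass. Hadh, the dehydrogenase of short and medium hydroxyacyl chains, read 24385, 22694.5 and 21431 on cerebellar and 31824, 32584 and 31929.5 on neocortical arrays. The neocortical arrays were closely grouped and all above the cerebellar ones. The difference was -0.49 ± 0.08 (1.41-fold, adjusted p = 0.00462). That probe set is of a class (_x_at) whose probes may also bind other transcripts. The Hadh probe set without such a suffix gave -0.13 ± 0.08 and did not pass (adjusted p = 0.361), and a dimmer one gave 0.00. Acadl, the long-chain acyl-CoA dehydrogenase, read 8899, 9484 and 8936 on cerebellar and 10886, 12578 and 11518.5 on neocortical arrays, without overlap. Its difference was -0.35 ± 0.09 (1.28-fold, adjusted p = 0.0372), and it was not past the threshold in any fit that left out 1 array (0.05 to 0.126).

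The other dehydrogenases were closer between regions. Acadvl, which takes very long chains, had a difference of 0.03 ± 0.09, Acadm (medium chains) -0.17 ± 0.12 and Acads (short chains) -0.28 ± 0.17. Acadm, the brightest of the oxidation genes that did not pass, read 14280.5, 19035 and 16834 on cerebellar and 17778, 20792 and 17718 on neocortical arrays. The subunits of the trifunctional protein, which carries out the last steps on long chains, did not pass, with estimates above 0 on their brightest probe sets. Hadha, its alpha subunit, read 7352, 9154 and 7354 on cerebellar and 6296, 5980.4 and 6432 on neocortical arrays, all higher in cerebellar samples. The difference of 0.34 ± 0.11 did not pass (adjusted p = 0.0838). Hadhb, the beta subunit and the neighbour of Hadha on chromosome 5, had 0.14 ± 0.11 with overlap. Its dimmer probe sets gave -0.06 and 0.11 and did not pass. The Hadh difference lay 0.84 log2 units below that of Hadha (exact permutation p = 0.1, with no overlap of the within-array ratios). That pair was chosen after its values were seen, and its p is the lowest the design allows. It used the brightest Hadh probe set, of the _x_at class. The Hadh probe set without a suffix, at -0.13, lay closer to 0 and was not compared with Hadha. Echs1, the enoyl-CoA hydratase, had -0.35 ± 0.12 (adjusted p = 0.0951) without overlap. Eci1 and Decr1, which handle the double bonds of unsaturated chains, had -0.16 ± 0.14 and -0.14 ± 0.10. Ehhadh, the bifunctional enzyme of peroxisomes, was too dim to test, at 67.7 to 216.7.

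None of the 4 genes of lipid droplets and fatty acid binding passed by limma (2 above 0 and 1 below at an unadjusted p below 0.05). Plin2, the coat protein of lipid droplets, read 6274, 9946 and 7635 on cerebellar and 5025, 6022 and 5283 on neocortical arrays. Every cerebellar array was above every neocortical one, with cerebellar replicate 2 the highest. The difference was 0.53 ± 0.16 (1.44-fold) and did not pass in the fit without a block (adjusted p = 0.0735), while it passed with the replicate block (0.0188) and without cerebellar replicate 1 (0.02). Pnpla2, the main triglyceride lipase, had -0.33 ± 0.14 (adjusted p = 0.168), with overlap. Fabp5, a carrier protein for fatty acids in neural cells, read 23634, 24614 and 26108 on cerebellar and 19613, 22848.5 and 21206 on neocortical arrays, without overlap. Its difference was 0.23 ± 0.09 (adjusted p = 0.13), and its second probe set gave the same estimate of 0.23 ± 0.13. Fabp3, the heart-type carrier, had -0.03 ± 0.29. Ppara, the nuclear receptor that drives oxidation genes in liver, had means in the dim range on all 3 of its probe sets, and the 1 tested had a difference of -0.72 ± 0.52 with cerebellar replicate 2 under the floor.

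Several genes with more than 1 tested probe set gave unequal answers. Of 19 such genes, both or all probe sets passed for 2, Acsl6 and Fads2. Some passed for 4, namely 2 of 3 for Cpt1a, 1 of 3 for Hadh, 1 of 2 for Fads1 and 1 of 3 for Elovl6. None passed for the other 13. Over the 63 tested probe sets of these genes 12 were lower, where 5.72% of all 27022 probe sets were. Among those that passed none was higher, against 4.88% of all probe sets. Acsbg1 and Acadl rest on 1 tested probe set each. Of probe sets too dim to test, 1 of Acly was apart between regions, at 44.3, 75.1 and 160.8 on cerebellar and 401.9, 251.3 and 201.4 on neocortical arrays, mostly inside the dim range, while the 3 tested Acly probe sets had differences of -0.09 to 0.06.

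**Figure D4:**
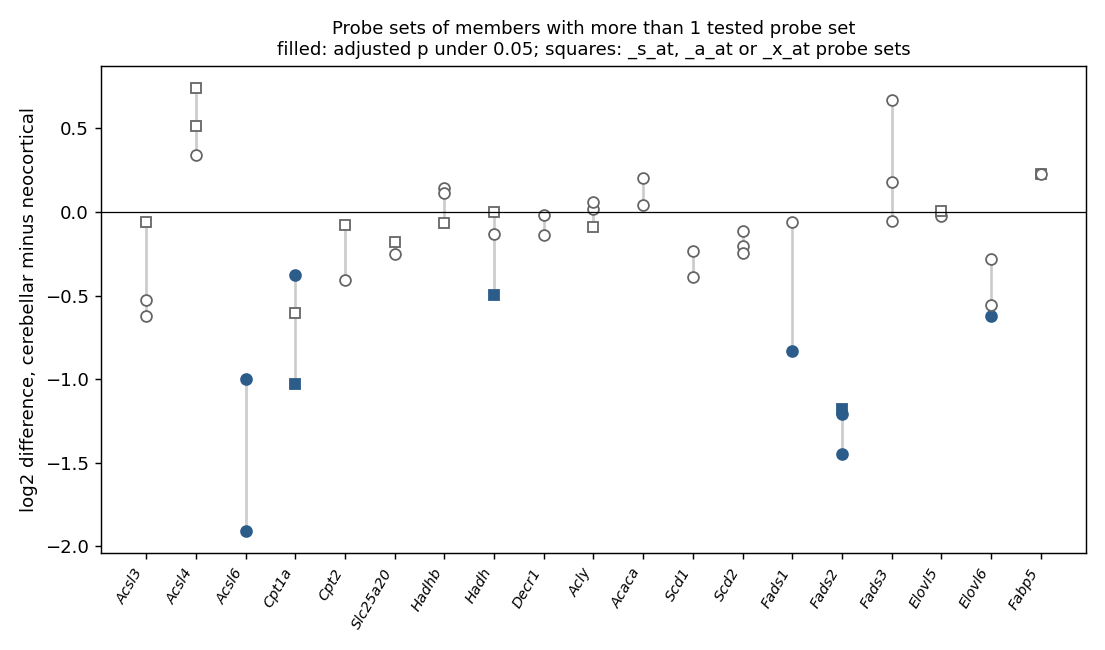
Log2 difference, cerebellar minus neocortical, of each tested probe set of the 19 genes with more than 1, filled where past the threshold and square where the probe set carries a suffix. Fads2 and Acsl6 are filled throughout, while Hadh spans from -0.49 to 0.00 and Fads1 from -0.83 to -0.06.

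Further genes of the same pathways, from 7 lists of 136 genes, were measured for 127 and tested for 111. In cerebellar samples 21 (18.9%) had lower and 5 (4.5%) had higher signal, and 85 did not pass, where 7.36% of all genes were lower and 5.3% higher. The share of higher genes was thus near that of all genes. The median log2 difference of the 111 was -0.11. The largest difference was that of Thrsp (Spot 14), a nuclear protein known for promoting lipogenic gene expression. It read 569.7, 379.2 and 390.4 on cerebellar and 3638, 3167.5 and 4102 on neocortical arrays, a difference of -3.04 ± 0.20 (8.25-fold, adjusted p = 6.47e-05).

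In the list of acetyl-CoA supply and chain building, 5 of 17 tested genes were lower (29.4%) and 1 was higher (5.88%). Besides Thrsp the lower ones were the acetyl-CoA synthetases Acss2 (1.95-fold) and Acss1 (1.76-fold), malic enzyme Me1 (1.79-fold), which supplies NADPH, and Hacd2 (1.8-fold), a dehydratase of chain elongation. Elovl1, an elongase of very long saturated chains, was higher by 1.4-fold (adjusted p = 0.0155). Of 15 tested genes of peroxisomal oxidation 4 were lower (26.7%). They were the branched-chain oxidase Acox2 (2.8-fold, with a cerebellar mean of 246.9 in the dim range), the phytanoyl-CoA hydroxylase Phyh (1.6-fold), the carnitine octanoyltransferase Crot (1.49-fold) and the reductase Decr2 (1.49-fold). Of 17 further mitochondrial genes the thioesterase Acot13 was lower (1.38-fold), and the thioesterase Acot9 was higher (1.47-fold), each 5.88% of the list and near the shares of all genes.

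Of 4 tested ketone body genes, 2 were lower (50%). Bdh1, the hydroxybutyrate dehydrogenase, read 1861, 2581 and 2827 on cerebellar and 5152, 6186 and 5174 on neocortical arrays (2.3-fold, adjusted p = 0.00263). Slc16a1, the monocarboxylate transporter that carries lactate and ketone bodies, was 1.74-fold lower (adjusted p = 0.00516). Of 13 tested genes of uptake, binding and thioester cleavage, 2 were lower (15.4%). Acot11, an acyl-CoA thioesterase, read 1462, 1696 and 1485 on cerebellar and 4443, 4369 and 4648 on neocortical arrays (2.9-fold, adjusted p = 0.000136), and Fabp7, the brain fatty acid binding protein of astrocytes and radial glia, was 1.52-fold lower (adjusted p = 0.00272).

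Of 21 tested lipid droplet and glycerolipid genes 4 were lower (19%). Mgll, the lipase that cleaves monoacylglycerol, read 1688.5, 1334.5 and 1765 on cerebellar and 4256, 3823 and 4288 on neocortical arrays (2.6-fold, adjusted p = 0.000591). Lpin3, a phosphatidate phosphatase, was 5.39-fold lower in the main fit, a value limited by the floor, to which 2 of its 3 cerebellar arrays were raised. It read 29.7, 126.9 and 28.7 on cerebellar and 443.0, 457.9 and 378.9 on neocortical arrays. Lpin3 was thus kept for testing through its neocortical arrays. The droplet proteins Cidea and Cideb were 3.5-fold and 2.46-fold lower, Cidea with a cerebellar mean of 166.9 in the dim range, as was that of Lpin3 at 61.8. Of 24 tested regulators 3 were lower and 3 higher (12.5% each). Of 6 tested subunit genes of the AMP-activated kinase, Prkag2 (gamma) was 2.03-fold and Prkaa1 (alpha) 1.42-fold lower and Prkab2 (beta) 1.47-fold higher, the last 2 not past the threshold with the replicate block. Prkag1, Prkab1 and Prkaa2 did not pass. Scap, the escort protein of the sterol-regulated factors, was 1.5-fold lower. Srebf1, the factor that drives lipogenic genes, was 1.29-fold higher, at 12999.5, 12483.5 and 14078 on cerebellar and 9788, 10522 and 10292 on neocortical arrays, and the receptor Rxra was 1.57-fold higher.

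Of the 26 list genes that passed, 14 passed in all 6 fits that left out 1 array. These were Thrsp, Acss1, Acss2, Me1, Hacd2, Crot, Phyh, Bdh1, Slc16a1, Acot11, Fabp7, Mgll, Lpin3 and Prkag2. Among them Lpin3 was kept for testing through its neocortical arrays. Decr2 and Prkaa1 passed in none of the 6 (adjusted p from 0.059 to 0.144 and from 0.063 to 0.156). Scap was lost without neocortical replicate 1 alone (0.0615), and Cidea without neocortical replicate 1 (0.051) or 2 (0.0581). Elovl1 was lost without any 1 neocortical array (0.0548 to 0.0634). Acox2 passed without cerebellar replicate 2 or neocortical replicate 1, Acot9 likewise, Cideb without cerebellar replicate 1 or neocortical replicate 1, and Srebf1 without cerebellar replicate 1 or 2. Their highest adjusted p values without another array were 0.116, 0.109, 0.119 and 0.116. Acot13 passed only without cerebellar replicate 2, Prkab2 only without cerebellar replicate 1 and Rxra only without cerebellar replicate 3, with highest values of 0.124, 0.14 and 0.12. With the replicate block Prkaa1 and Prkab2 did not pass (adjusted p = 0.0621 and 0.0601). None of the 5 higher genes passed after scaling by the array median (adjusted p from 0.0737 for Rxra to 0.49 for Srebf1), and all 5 kept a difference above 0.

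**Figure D5:**
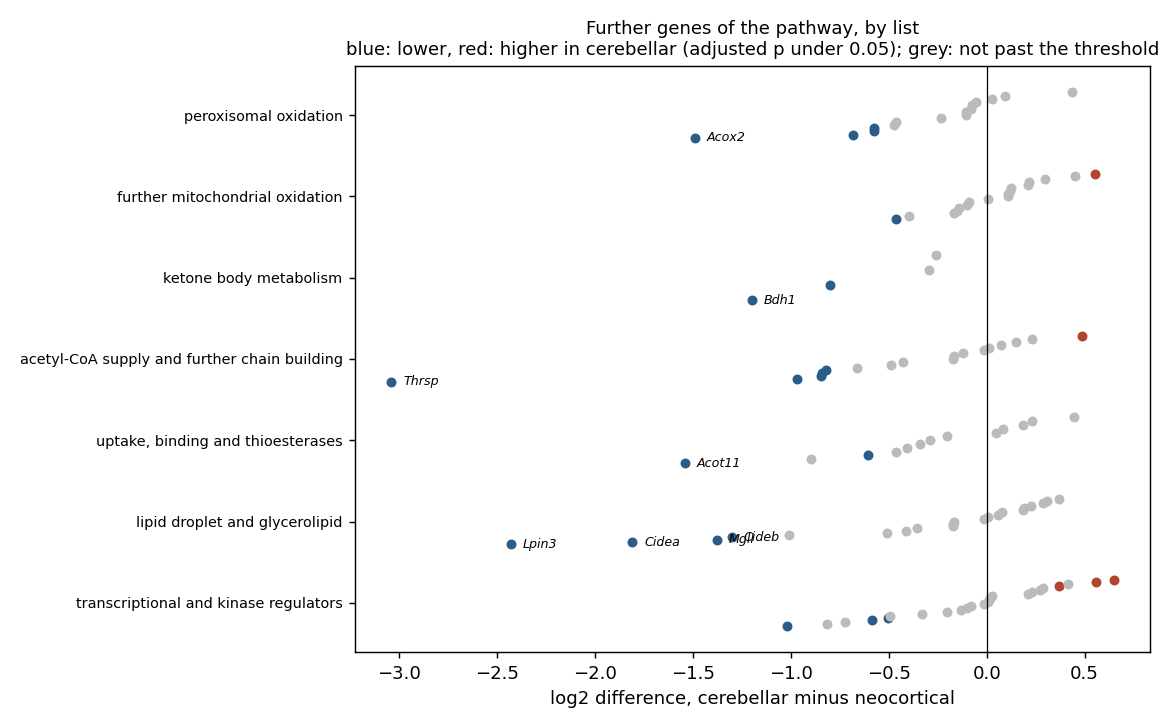
Log2 difference, cerebellar minus neocortical, of the 111 further pathway genes tested, in 7 lists; vertical position within a list follows the order of the differences. Blue points were lower and red points higher past the threshold, with names at differences beyond 1.1; Thrsp stands farthest left at -3.04.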

How the data were processed

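The authors deposited 1 linear intensity per probe set and array. Per the labels, total RNA was labelled as biotinylated amplified RNA. How probes were summarised, with which software, and any detection calls, is not given in the sources used here. On every array the deposited intensities had a mean of 1500 after trimming 2% at each end. Medians ran from 284.7 to 361.2.

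Quantile normalization covered the 45037 probe sets that are no controls. A floor of 62.2, the 20th percentile, replaced smaller values before log2 transformation. Probe sets with a mean log2 value at or above the 40th percentile were kept, 27022 in all. The test was limma (version 3.58.1, R version 4.3.3, lmFit, then eBayes with a variance trend, two-sided, all 6 arrays, no block). It was also run on simulated data with independent normal values, which cannot show how it performs on these arrays. Array number, 3 a group, limits the precision. Alternatives changed the scaling, floor, filter, variance trend, replicate block, arrays used and probe set rule.

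Symbols came from GEO's platform annotation (1 symbol for 34945 probe sets, several for 932, none for 9160), updated by Entrez ID for 34741 through the GRCm38.p6 gene table. Promoters are RefSeq's.

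Genes named with values are the members past the threshold, the brightest member of each role that did not pass, members whose probe sets disagreed, and up to 4 passing genes per list and direction. Other members named with values (such as Cpt2, Hadha and Scd1), Acss1 and the pairs of genes compared fall outside that rule and were chosen after their values were seen. The members and lists were chosen with earlier results of these data known.

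The arrays of both groups share the numbers 1 to 3. After subtracting group means, arrays that share a number correlated at 0.18, 0.188 and 0.101, and the others at -0.182 to 0.0225. Each same-number value is over 0.1, so numbers may pair the arrays, though so few arrays do not settle it. Subtracting group means makes the correlations of 1 array with the 3 of the other group nearly cancel. Low values among the others are thus partly built in. The main fit did not use the pairing, and the replicate block is given as an alternative.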

Additional observations from a re-analysis of the deposited data

How the results depend on the processing

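Acsl6 and Fads2 passed under all 16 alternatives run, and each of the 8 members that passed kept its sign in all 16. The count of lower members was 4 with no filter (Acsl6, Hadh, Fads1 and Fads2), 4 with no variance trend (Acsbg1, Acsl6, Fads1 and Fads2) and 5 when probe sets were averaged per gene. It ran from 5 to 8 with 1 array left out, the count of higher members from 0 to 1 and the members' median from -0.247 to -0.152. With the replicate block 8 members were lower and 1 higher, and Prkaa1 and Prkab2 were lost, Cpt1a was lost and Scd1 and Plin2 gained, as were Hacl1, Mid1ip1 and Acot1 among the list genes, and it changed no other call among members and list genes; the block gave 1557 higher and 1785 lower probe sets. Scaling by the median moved the members' median to -0.375, the higher probe sets to 819, against 2105 lower, and the higher list genes to 0. With values as deposited 1586 probe sets were higher and 1447 lower. With no filter 577 and 704 probe sets were higher and lower, and with no variance trend 676 and 914. With 1 array left out they ran from 548 to 1233 and from 665 to 1542, and the list genes from 0 to 5 higher and from 15 to 20 lower. The causes of these shifts were not tested. Hadh was lost without suffixed probe sets (log2 difference -0.133, adjusted p = 0.361), which left 7 members lower. Acacb, Ehhadh and Elovl2 were tested only with no filter and did not pass there. Signals in the dim range, up to 269.2, limit what can be said of Ppara and of these 3.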
